A study of Mus musculus with 6 samples.

Results

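CpG-rich ATAC-Seq peaks that lie away from annotated start sites, often termed orphan CpG islands, were examined in Beko, a line of mouse progenitor T cells with constitutive Notch signaling. Members were the autosomal peaks of the mm9 build that lay more than 1 kb from the start of every GENCODE vM1 transcript and had, over the whole peak, a GC content of 50% or more together with a ratio of observed to expected CpG dinucleotides of 0.6 or more. In total 598 of 31879 autosomal peaks met this rule, out of 32527 peaks in the whole list. They made up 2.89% of the 20685 distal peaks (95% Wilson interval 2.67 to 3.13%) and 7.23% of the 8269 CpG-rich peaks. Reads and accessibility did not enter the rule beyond the presence of a peak.

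Cells received DAPT, a γ-secretase inhibitor (GSI), or its solvent DMSO for 24 h, with 3 libraries each. GSI stops the release of the Notch intracellular domain, which activates transcription together with the DNA-binding protein RBPJ. The labels give the dose of DAPT as 10 mg/ml, whereas the methods of the study state the same figure in μg/ml. All libraries come from 1 cell line, and the study merged them in 1 list of peaks, so there is no value per library, no error between libraries and no comparison of GSI with DMSO for any peak below. Expression was not analysed here, and the label of the cells could only be set beside peaks at T-cell genes, which are described further on. Errors are the spread over the 19 autosomes or counting intervals. Autosomes are parts of the same genome and not replicate cultures.

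CpG islands are stretches in which CpG dinucleotides escaped the loss seen in the rest of a vertebrate genome, because they are kept free of DNA methylation in the germ line. Most lie at promoters, where zinc finger proteins with a CXXC domain bind unmethylated CpG and factors such as SP1 bind the motif GGGCGG. Orphan islands share this composition without a known start site and are described as unannotated promoters, as enhancers of developmental genes, or as parts of exons and repeats.

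The first sequences are the 240 bases around the centre of a peak, 5′ to 3′ on the plus strand of mm9, with each CpG in capitals. The composition rule was applied to whole peaks, so a central stretch alone need not meet it. The widest member lay at chr15:85499420-85501930, the member in the first intron of Maml3, a coactivator of Notch, at chr3:51905725-51907333, and the member in a coding exon of Tal1, a T-cell leukemia oncogene, at chr4:114735823-114736332. A CpG-poor distal peak at chr15:103360755-103361208, the one on chromosome 15 nearest to the medians of its class in width, GC content and CpG ratio, is given for comparison.
Widest member, chr15:85500555-85500794: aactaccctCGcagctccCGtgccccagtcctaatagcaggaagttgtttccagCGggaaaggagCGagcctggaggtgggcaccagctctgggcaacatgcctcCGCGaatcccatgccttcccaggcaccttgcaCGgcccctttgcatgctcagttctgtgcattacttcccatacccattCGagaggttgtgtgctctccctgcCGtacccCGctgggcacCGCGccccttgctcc
Maml3 member, chr3:51906409-51906648: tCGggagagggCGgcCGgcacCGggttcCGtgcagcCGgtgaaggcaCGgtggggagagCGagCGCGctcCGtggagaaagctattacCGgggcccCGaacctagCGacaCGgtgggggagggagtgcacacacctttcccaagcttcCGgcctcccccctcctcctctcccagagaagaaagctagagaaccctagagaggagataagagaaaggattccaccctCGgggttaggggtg
Tal1 member, chr4:114735958-114736197: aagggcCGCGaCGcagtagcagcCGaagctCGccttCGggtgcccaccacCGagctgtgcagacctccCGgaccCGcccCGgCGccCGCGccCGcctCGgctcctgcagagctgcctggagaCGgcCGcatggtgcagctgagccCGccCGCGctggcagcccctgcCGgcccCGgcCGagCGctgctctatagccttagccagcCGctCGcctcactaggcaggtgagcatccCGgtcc
CpG-poor distal peak, chr15:103360862-103361101: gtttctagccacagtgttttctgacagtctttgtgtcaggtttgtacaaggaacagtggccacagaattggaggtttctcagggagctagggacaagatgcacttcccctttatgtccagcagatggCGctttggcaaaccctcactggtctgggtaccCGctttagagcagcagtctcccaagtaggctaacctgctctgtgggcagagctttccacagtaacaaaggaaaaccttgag
The 4 stretches held 12, 17, 27 and 2 CpG dinucleotides, in this order.

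The next sequences carry elements that the results turn on. The Sipa1l2 member at chr8:128093311-128094270 had the most matches of the SP motif GGGCGG in its central 200 bp, 8 in all, which are in capitals on the minus strand. The Il6st member at chr13:113253918-113254704 held a start of RefSeq (promoter table of build GRCm38.p6), and its first 50 transcribed bases are in capitals. A match of the CTCF motif is in capitals in the members at Asb2 (intron, plus strand) and Rasip1 (coding exon, minus strand). The member upstream of Aurkb held a pair of stretches with matches of the A box and B box, the internal promoter elements of tRNA genes, both in capitals.
Sipa1l2 member, chr8:128093691-128093890: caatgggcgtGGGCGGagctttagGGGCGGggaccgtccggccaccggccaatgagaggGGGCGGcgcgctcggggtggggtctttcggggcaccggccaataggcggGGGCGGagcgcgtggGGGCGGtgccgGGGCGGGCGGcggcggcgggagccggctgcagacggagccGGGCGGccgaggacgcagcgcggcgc
Il6st member, chr13:113254128-113254327: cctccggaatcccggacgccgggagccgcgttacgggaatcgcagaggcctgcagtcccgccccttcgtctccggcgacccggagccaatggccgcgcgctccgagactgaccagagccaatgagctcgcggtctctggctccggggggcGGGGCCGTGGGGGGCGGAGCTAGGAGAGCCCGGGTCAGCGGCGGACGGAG
Asb2 member, chr12:104563842-104563941: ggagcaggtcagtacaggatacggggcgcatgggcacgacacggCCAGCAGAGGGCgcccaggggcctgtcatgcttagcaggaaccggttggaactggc
Rasip1 member, chr7:52884285-52884384: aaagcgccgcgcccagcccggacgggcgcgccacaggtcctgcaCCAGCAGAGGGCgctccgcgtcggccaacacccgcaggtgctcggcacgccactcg
Aurkb member, plus strand, chr11:68854461-68854580: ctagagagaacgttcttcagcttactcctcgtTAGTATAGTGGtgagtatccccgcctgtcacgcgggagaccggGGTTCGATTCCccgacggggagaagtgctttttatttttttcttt
Aurkb member, minus strand, chr11:68854757-68854876: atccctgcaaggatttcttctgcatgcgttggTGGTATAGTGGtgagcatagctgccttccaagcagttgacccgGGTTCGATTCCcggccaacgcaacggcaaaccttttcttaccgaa

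The composition that chose the members is given here as a description. Their median CpG ratio was 0.73 (quartiles 0.66 and 0.82), their median GC content 60.6% (55.7 and 65.7%), and they held a median of 42 CpG dinucleotides (28 and 62). The 20087 CpG-poor distal peaks were all distal peaks that failed either composition threshold, so some had a high ratio at a low GC content. Their median ratio was 0.21 (highest 1.01) and their median GC content 49.9%. The 7671 CpG-rich promoter peaks, which met the same composition rule within 1 kb of a start, had a median ratio of 0.80 and a GC content of 63.4%. One member stood apart, a peak of 285 bp in an intron of Ankrd32 at chr13:77248837-77249121, with a ratio of 2.42 and 34 CpG dinucleotides at a GC content of 51.6%. It was singled out after its value was seen.

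**Figure D1:**
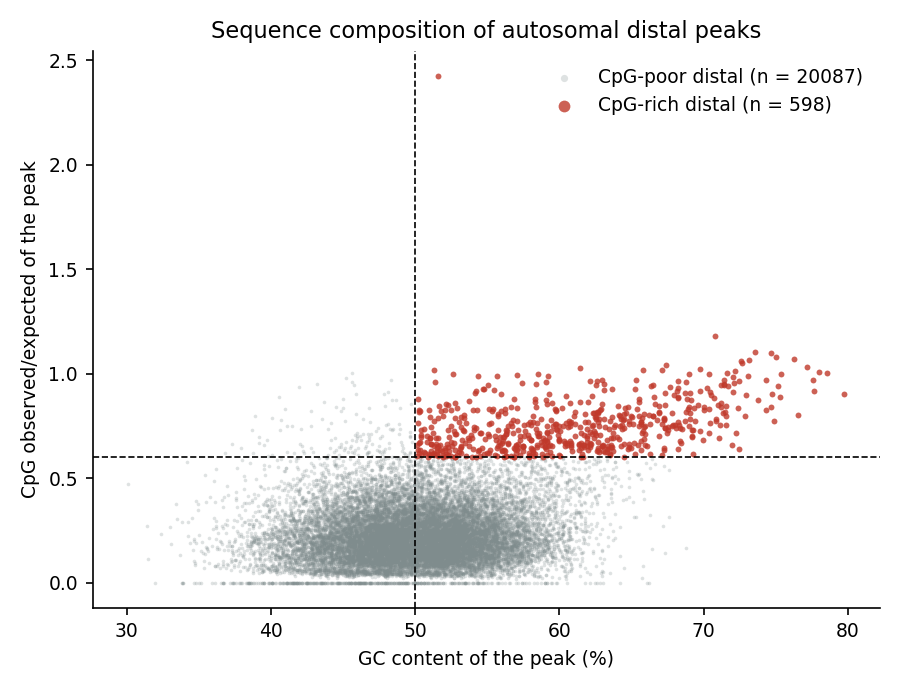
GC content (x axis, %) against the CpG observed/expected ratio (y axis) of each autosomal distal peak, with the thresholds of 50% and 0.6 as dashed lines. The 598 CpG-rich distal peaks fill the upper right field and adjoin the 20087 CpG-poor ones without a gap, and 1 member lies at a ratio of 2.42.

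Peaks on both sides of each threshold had close values. The members with the lowest ratios had 0.6 (near Gm13304), 0.6003 (near Lmo4) and 0.6008 (in Robo3), and the distal peaks just below had 0.5999 (near Cnn1), 0.5983 (near Gm10989) and 0.5982 (near Ccl21c). For GC content, the values just inside were 50.12%, 50.14% and 50.18% and those just outside 49.76%, 49.72% and 49.68%. The members closest to a start lay 1002 bp (Irf2), 1008 bp (Lrrc33) and 1031 bp (Zc3h10) from it, against 973 bp (Trim8), 961 bp (Hivep2) and 958 bp (SNORA17) for the CpG-rich peaks assigned to promoters. No gap in composition or distance thus separated the members from the peaks next to them.

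Members were wider than the other distal peaks and narrower than CpG-rich promoter peaks. Width was not part of the rule. The median width was 633.5 bp (quartiles 444 and 877 bp, range 217 to 2511 bp), against 463 bp for CpG-poor distal and 931 bp for CpG-rich promoter peaks. Across autosomes, the median width of members was 657 ± 116 bp (mean ± SD, n = 19 autosomes), that of CpG-poor distal peaks 462 ± 6.23 bp and that of CpG-rich promoter peaks 934 ± 19.4 bp. Members were wider than CpG-poor distal peaks on 19 of 19 autosomes, by 194 ± 117 bp (sign-flip permutation test, adjusted p = 0.000167). They were narrower than CpG-rich promoter peaks on 19 of 19 autosomes, with a difference of -277 ± 114 bp (adjusted permutation p = 0.000167). All tests in this text are two-sided, pair the classes by autosome and are adjusted over 25 tests.

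**Figure D2:**
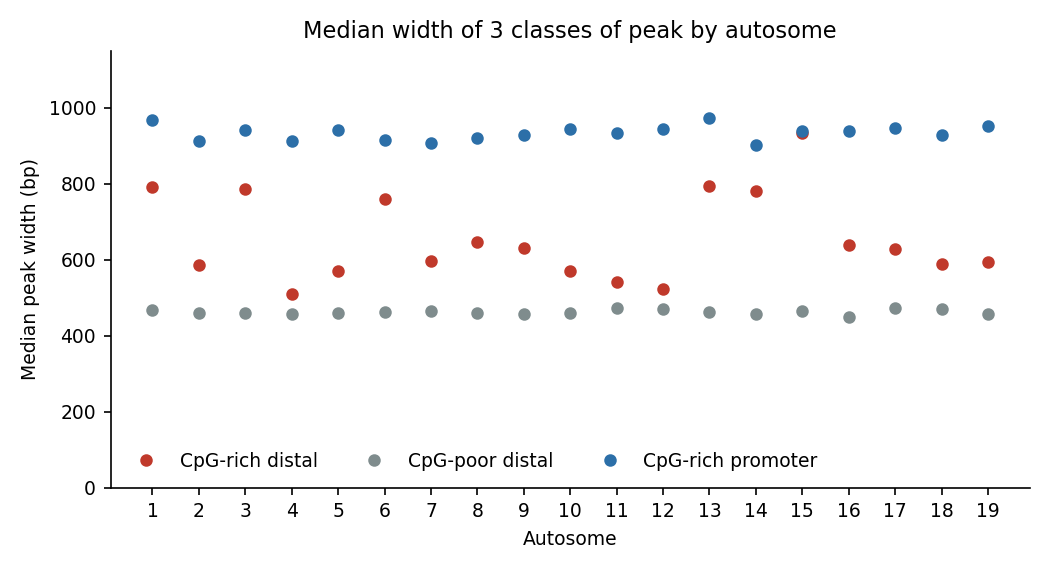
Median peak width (y axis, bp) on each of the 19 autosomes (x axis) for CpG-rich distal, CpG-poor distal and CpG-rich promoter peaks, 1 point per class and autosome. The medians of CpG-rich distal peaks range from 510 to 933 bp and lie between both other classes on every autosome.

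The spread over autosomes was larger for the members, of which an autosome carried 17 to 58. In total 96 members (16.1%) were wider than 1 kb, against 4.70% of CpG-poor distal peaks. Of the 5 widest, the first, of 2511 bp, had its nearest start at the microRNA gene Mirlet7c-2, 35103 bp away. The next, of 2339 bp, had its nearest start at Cxxc5, which encodes a CXXC domain protein, 57895 bp away. Then came one of 2278 bp at chr6:145288379-145290656, one of 2120 bp in an intron of Eif4e3 and one of 1944 bp upstream of the mitotic kinase gene Aurkb. None of these 5 had a near-identical copy in the genome or held a RefSeq start. Together the members covered 421 kb, which is 2.02% of the sequence covered by autosomal peaks.

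The CpG ratio of members fell with distance from the peak centre. Where the CpG-rich stretch ends relative to the edge was not measured, since values were aligned to the centre or began 500 bp outside the edge. Pooled over members, the ratio was highest at the centre, with 0.84 in bins of 100 bp, stayed at or above 0.6 over 600 bp and was 0.34 at 1 kb from the centre. In CpG-rich promoter peaks it reached 0.90, stayed at or above 0.6 over 1000 bp and was 0.36 at 1 kb. In the sequence of 1 kb that begins 500 bp outside each edge, which the rule did not use, the median ratio was 0.24 for members and 0.20 for CpG-poor distal peaks. This small difference of 0.048 ± 0.027 occurred on 19 of 19 autosomes (mean ± SD, n = 19 autosomes; permutation test, adjusted p = 0.000167). The peaks themselves were chosen by the same ratio, and how far that choice carries into the flanks was not tested. The median flanking ratio of members was 0.28 at 1 to 5 kb from a start, 0.23 at 5 to 50 kb and 0.26 beyond 50 kb, and 0.31 for members with a near-identical copy.

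**Figure D3:**
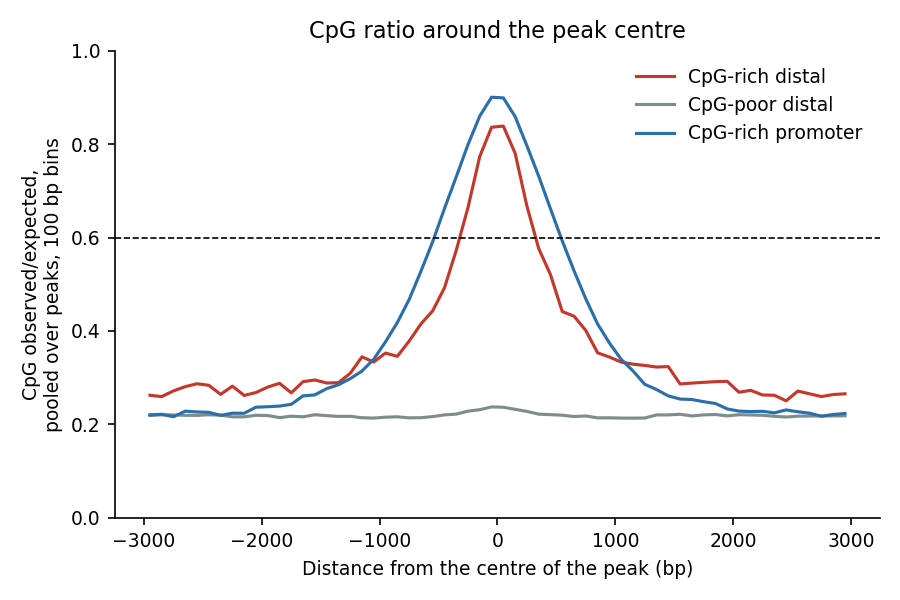
CpG observed/expected ratio pooled over the peaks of a class in bins of 100 bp (y axis) against the distance from the centre of the peak (x axis, bp), with the threshold of 0.6 dashed. CpG-rich distal peaks reach 0.84 and CpG-rich promoter peaks 0.90 at the centre, and CpG-poor distal peaks stay at or below 0.24.

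Members lay closer to annotated starts than other distal peaks, although the rule kept both beyond 1 kb. The nearest start was 1 to 5 kb away for 243 members (40.6%; 95% Wilson interval 36.8 to 44.6%) and for 19.9% of CpG-poor distal peaks. The share of members was higher on 19 of 19 autosomes, by 19.4 ± 10.4 percentage points (mean ± SD, n = 19 autosomes; permutation test, adjusted p = 0.000167). In total 42 members (7.02%) lay more than 50 kb from a start, against 16.2% of CpG-poor distal peaks, a difference of -9.33 ± 6.79 points that was negative on 18 of 19 autosomes (adjusted permutation p = 0.000167). The median distance was 7468 bp for members and 14322 bp for CpG-poor distal peaks. Members lay on either side of the nearest gene, 52.0% on the upstream side of its start. The nearest start was that of a protein-coding gene for 470 members, of a lincRNA gene for 32 and of a microRNA gene for 18.

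Of the 5 members farthest from a start, 4 had near-identical copies. The farthest lay 283763 bp upstream of Sema6a and had 29 near-identical copies. A member of 444 bp near Gm15627 lay 256558 bp away and had 1 copy, one near Fam184a lay 148740 bp away with 2 copies, and one near Gm11261 lay 146872 bp away with 6 copies. The member 175692 bp upstream of Lmo4, a cofactor of LIM domain transcription factors, had no copy and held the start of the RefSeq lncRNA Gm34434.

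Placement relative to genes also differed between the distal classes. At their centres, 385 members (64.4%) were intergenic, against 48.0% of CpG-poor distal peaks, which is 17.3 ± 8.31 points more and was so on 19 of 19 autosomes (mean ± SD, n = 19 autosomes; permutation test, adjusted p = 0.000167). Exons held 89 members (14.9%), against 3.99%, with 9.74 ± 6.31 points more on 19 of 19 autosomes (adjusted permutation p = 0.000167). Of these, 60 lay in coding exons (10.0% against 1.54%) and 29 in UTRs or non-coding exons (4.85% against 2.45%). Introns held 20.7% of members and 48.0% of CpG-poor distal peaks. Where peaks within 5 kb of a start were left out, the exonic difference was 3.45 points (adjusted permutation p = 0.0505). The composition rule separates the classes compared here, and its part in these differences of placement was not tested.

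Members in coding exons had a median GC content of 65.8% and lay near starts, with a median distance of 2896 bp. They included the regulators Tal1 (510 bp), Hoxb4 (1052 bp) and Nfkb2 (453 bp), which encodes an NF-κB subunit, the zinc finger genes Sp6 (745 bp) and Sp9 (1327 bp), and Maff (932 bp), a small MAF protein. Others lay in genes with other roles, such as the receptor gene Ngfr (561 bp), the hormone precursor gene Pomc (642 bp) and the chromatin factor Prdm2 (945 bp). These names were chosen after the values were seen.

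**Figure D4:**
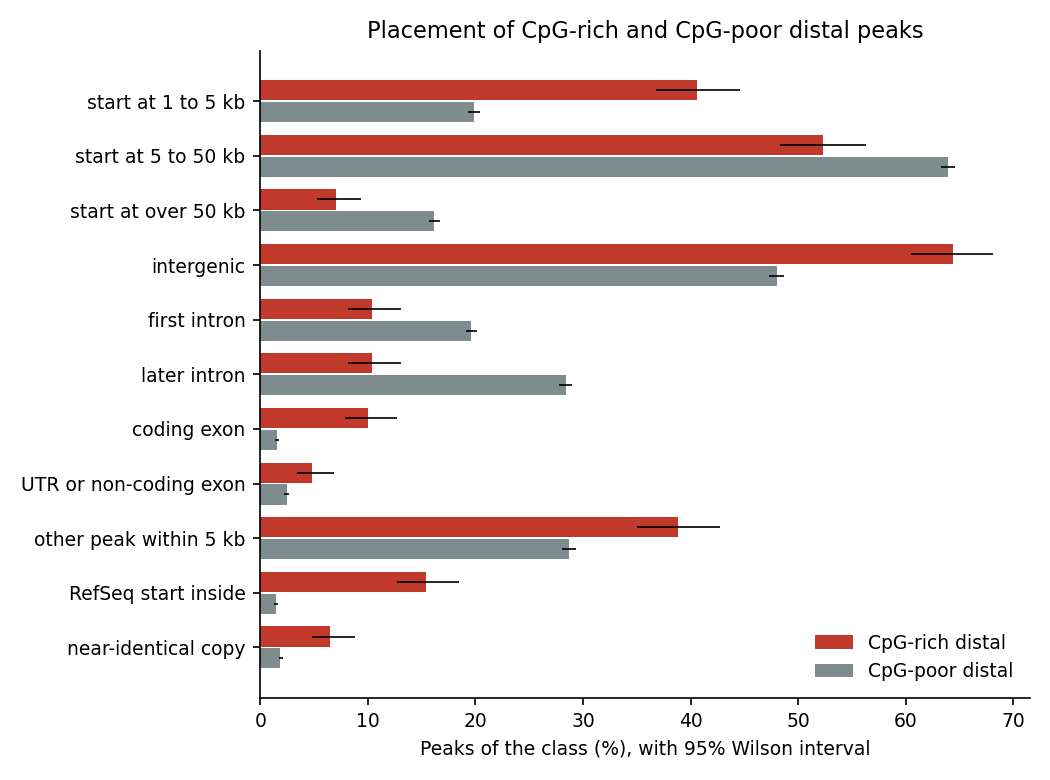
Share of peaks (x axis, %, with the 95% Wilson interval as error bar) in each distance class, genomic feature and other property (y axis) for 598 CpG-rich distal and 20087 CpG-poor distal peaks. CpG-rich distal peaks have the higher share 1 to 5 kb from a start (40.6% against 19.9%), in coding exons (10.0% against 1.54%) and with a RefSeq start inside (15.4% against 1.44%), and the lower share in introns.

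A later annotation assigned starts to part of the members. RefSeq promoter sequences were placed on mm9 by sequence, and the 31326 of 32851 that had 1 place were used. A start lay inside 92 members (15.4%; 95% Wilson interval 12.7 to 18.5%), inside 1.44% of CpG-poor distal peaks and inside 76.9% of CpG-rich promoter peaks. The share of members exceeded that of CpG-poor distal peaks by 14.9 ± 8.46 points and did so on 18 of 19 autosomes, the other being equal (mean ± SD, n = 19 autosomes; permutation test, adjusted p = 0.000167). Within 1 kb of the peak, a RefSeq start was found for 110 members (18.4%) and for 3.05% of CpG-poor distal peaks. The share with a start inside was 12.8% for members 1 to 5 kb from a GENCODE start, 16.9% at 5 to 50 kb, and beyond 50 kb a start lay inside 8 of 42, with overlapping Wilson intervals.

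Of the 92 members, 54 held the start of a protein-coding gene and 41 that of a lncRNA, with 3 members counted in both. In 38 at least 1 such gene was the nearest or the host gene, matched by its symbol or a synonym in RefSeq, so that the older annotation begins this gene elsewhere. Il6st, which encodes the shared signal transducer of IL-6 family cytokines, had such a member of 787 bp 10512 bp upstream of its nearest start. Tyk2, a Janus kinase gene, had one of 726 bp at 3646 bp, Hdac4, a histone deacetylase gene, one of 966 bp at 31726 bp, and Pcgf5, a Polycomb group gene, one of 1367 bp at 29593 bp. Rgmb, a BMP coreceptor gene, had one of 884 bp at 3908 bp.

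In other members no symbol or synonym matched the nearest or host gene. The member near Aars held the start of Exosc6, an RNA exosome subunit gene, the member near Rab2b that of the chromatin remodeler gene Chd8, and the member near Dennd4b that of Gatad2b, a subunit gene of the NuRD complex. Among lncRNA starts were Lockd, next to the cell cycle inhibitor gene Cdkn1b (1383 bp), and Chaserr, next to the chromatin remodeler gene Chd2 (1211 bp). These genes were chosen for their known roles after the list was seen. Members with a RefSeq start had a median width of 738 bp and a median CpG ratio of 0.77, and the 506 others 602 bp and 0.73. SP motifs were found in 59.8% of the former and 48.0% of the latter, and intergenic were 72.8% and 62.8%. These subsets were described without a test.

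To see how members compare with promoter peaks that met the same composition rule, short motifs were searched on both strands of the central 200 bp. Composition was not equal. The 100 bp before the centre held 8.82 CpG on average in members and 10.5 in CpG-rich promoter peaks. In total 6 of 15 motifs differed between members and CpG-rich promoter peaks, 4 lower and 2 higher in members. Each of the 4 lower motifs contains a CpG, and neither of the 2 higher ones does. The part of composition in these differences was not tested. The SP motif GGGCGG, bound by SP and KLF factors, was found in 298 members (49.8%) and in 61.9% of promoter peaks, a difference of -11.2 ± 8.59 points that was negative on 17 of 19 autosomes (mean ± SD, n = 19 autosomes; permutation test, adjusted p = 0.00025). The ETS motif with a CpG, CCGGAAG, was found in 8.36% and 14.5% (-5.46 ± 5.43 points, lower on 16 of 19 autosomes, adjusted permutation p = 0.00104). The YY1 motif AGATGGCGG was found in 4 members, or 0.669%, and in 2.88% of promoter peaks (-2.25 ± 1.57 points, lower on 17 of 19 autosomes, adjusted permutation p = 0.000167). The CREB motif TGACGT was found in 4.68% and 7.43% (-2.26 ± 3.97 points, lower on 12 of 19 autosomes, adjusted permutation p = 0.0385). With stricter composition thresholds, a ratio of 0.75 and a GC content of 55%, the difference was -4.81 points for GGGCGG (adjusted permutation p = 0.149) and -4.83 points for CCGGAAG (adjusted permutation p = 0.121), both no longer past the threshold. For TGACGT the difference missed the threshold in 5 alternatives, at -2.56 to -1.39 points (adjusted permutation p = 0.0502 to 0.346).

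Conversely, the CTCF motif, bound by the insulator protein CTCF, was found in 25 members (4.18%; 95% Wilson interval 2.85 to 6.10%) and in 0.313% of CpG-rich promoter peaks. The difference was 3.55 ± 4.28 points, higher on 12 and lower on 4 of 19 autosomes (mean ± SD, n = 19 autosomes; permutation test, adjusted p = 0.001). It was 1.08 points (adjusted permutation p = 0.647) with the same stricter thresholds. The motif of TCF7 and LEF1, the HMG box factors of T cells, CTTTGA, was found in 7.53% and 4.39% (2.69 ± 3.50 points, higher on 15 of 19 autosomes, adjusted permutation p = 0.00577). It missed the threshold with the stricter composition thresholds (2.93 points, adjusted permutation p = 0.324) and beyond 5 kb from a start (2.34 points, adjusted permutation p = 0.0748). Over the whole peak, the difference for CTTTGA was -3.38 points (adjusted permutation p = 0.0836), and among peaks of at least 500 bp both were lost, with 1.63 points for CTCF (adjusted permutation p = 0.109) and 0.777 for CTTTGA (adjusted permutation p = 0.62). CpG-poor distal peaks held CTCF in 8.83%, CTTTGA in 16.6% and GGGCGG in 7.97%. Their shares were not tested against members, since the composition rule bears on them.

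**Figure D5:**
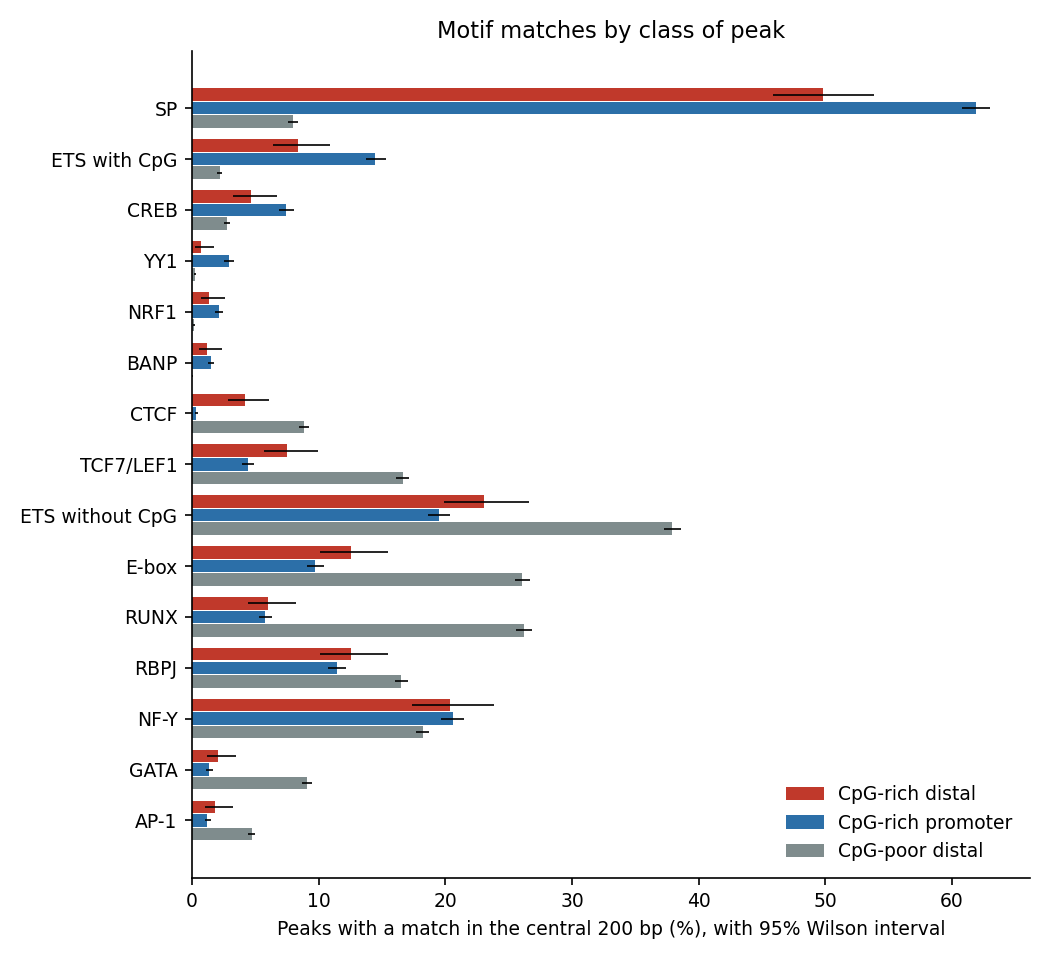
Share of peaks with at least 1 match of each motif in the central 200 bp (x axis, %, with the 95% Wilson interval as error bar) by motif (y axis) for CpG-rich distal, CpG-rich promoter and CpG-poor distal peaks. The SP motif is found in 49.8, 61.9 and 7.97% of these classes, and the CTCF motif in 4.18, 0.313 and 8.83%.

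For the other 9 motifs no difference in the central 200 bp passed the test. Under alternatives some did, of which AGGAAG was higher in members without peaks that have a copy (4.20 points, adjusted permutation p = 0.0311). With composition measured over the central 200 bp, CAGCTG (5.40 points, adjusted permutation p = 0.000467), TGTGGT (4.35 points, adjusted permutation p = 0.00025) and AGATAA (2.73 points, adjusted permutation p = 0.000844) were higher in members. Over the whole peak, all of these 9 motifs except AGATAA and the AP-1 motif were lower in members and passed the test. The AP-1 motif was lower without passing it, and AGATAA did not pass it either. Members were also narrower than promoter peaks, as given above, and the part of width in these differences was not tested. AGGAAG, the ETS core without a CpG, which cannot occupy the same core as CCGGAAG, was found in 23.1% of members and 19.5% of promoter peaks (3.37 ± 6.90 points, adjusted permutation p = 0.0689). The RBPJ motif TGGGAA was found in 75 members (12.5%) and in 11.4% of promoter peaks (1.23 ± 7.06 points, mean ± SD, n = 19 autosomes; permutation test, adjusted p = 0.527), and in 16.5% of CpG-poor distal peaks. The E-box CAGCTG was found in 12.5% and 9.74%, the RUNX motif TGTGGT in 6.02% and 5.78%, and the NF-Y motif CCAAT in 20.4% and 20.6%. In CpG-poor distal peaks CAGCTG was found in 26.1% and TGTGGT in 26.2%. The NRF1 motif GCGCATGCG, the BANP motif CTCGCGAG, AGATAA, the motif of the GATA family, and the AP-1 motif TGACTCA were each found in 1.17 to 2.01% of members. A match is only a stretch of letters, and binding was not measured here.

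The 25 members with a CTCF match in the centre were 278 to 1383 bp wide. They included a peak of 545 bp in an intron of Asb2, which encodes a subunit of a ubiquitin ligase, one of 602 bp in a coding exon of Rasip1, one of 387 bp 1327 bp from a start of Cux1 and one of 444 bp 37889 bp from the cyclin E1 gene Ccne1. Of the 5 members with most SP matches in the central 200 bp, 4 held a RefSeq start. These lay at Sipa1l2 (8 matches), 2810008M24Rik (7), Arid1b (6) and Scaper (6), and the fifth, with 7 matches, lay in an intron of Tcfap2a, which encodes the factor AP-2α.

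A small group of members carried letters of the tRNA promoter elements. They were not matched to annotated tRNA genes, since no tRNA annotation was used here. The B box GGTTCGANTCC, searched on both strands of the whole peak, was found in 13 members (2.17%; 95% Wilson interval 1.27 to 3.68%), in 0.199% of CpG-poor distal peaks and in 0.521% of CpG-rich promoter peaks. An A box preceded it in 11 of the 13. Among the other peaks with a B box, this was so in 31 of 40 CpG-poor distal, 12 of 40 CpG-rich promoter and 2 of 4 CpG-poor promoter peaks. This element was searched after values had been seen and was not tested. The 13 members were all intergenic, had a median width of 1189 bp and a median GC content of 51.9%, and none had a near-identical copy. The member at chr1:173031899-173033576 held 4 B boxes, the one near Ict1 at chr11:115273882-115275241 held 3, and those near Aurkb and Zfp692 held 2 each. Those near U3 at chr13:22142380-22143262 and near Btn1a1 at chr13:23545281-23545719 held 1 each.

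Repeated sequence formed another group. A near-identical copy at another place of the genome, with at least 80% of the peak at 95% identity, was found for 39 members (6.52%; 95% Wilson interval 4.81 to 8.79%) and for 1.88% of CpG-poor distal peaks. The share was higher on 15 of 19 autosomes, by 4.90 ± 6.05 points (mean ± SD, n = 19 autosomes; permutation test, adjusted p = 0.00229). With stricter composition thresholds the difference was 2.99 points (adjusted permutation p = 0.141), and among peaks of at least 500 bp it was 3.18 points (adjusted permutation p = 0.141). In total 17 members had more than 10 copies. Members with a copy were narrow, with a median width of 450 bp, and included peaks near Tmem64 and Gpsm1 with 50 copies found for each. The search was set to return at most 50, so these peaks may have more. Since 1 alignment was kept per read, reads of such peaks may come from any of the copies.

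Members had close neighbours more often than other distal peaks, but not beyond 50 kb from a start. Another peak of any class lay within 5 kb of 232 members (38.8%; 95% Wilson interval 35.0 to 42.8%) and of 28.7% of CpG-poor distal peaks. The difference was 9.29 ± 8.17 points, positive on 17 of 19 autosomes (mean ± SD, n = 19 autosomes; permutation test, adjusted p = 0.000636). Within 20 kb it was 2.36 points (adjusted permutation p = 0.163), among peaks more than 5 kb from a start 0.400 points (adjusted permutation p = 0.912), and with the stricter composition thresholds 3.35 points (adjusted permutation p = 0.378). At 1 to 5 kb from a start, 58.0% of members and 43.9% of CpG-poor distal peaks had a neighbour within 5 kb. The shares were 28.1% and 25.6% at 5 to 50 kb, and 7.14% (3 of 42) and 22.3% beyond 50 kb, without a test. Of the 232 nearest peaks, 44.4% were CpG-poor distal, 35.3% CpG-rich promoter and 8.62% CpG-rich distal peaks. For CpG-poor distal peaks with such a neighbour, these shares were 77.9, 11.1 and 1.80%, which was not tested.

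When members within 5 kb of each other were joined, 568 stood alone, 12 runs held 2 members and 2 runs held 3. One run of 3 lay in the first intron of Kdm6b, which encodes a demethylase of H3K27, with widths of 844, 760 and 359 bp and 176 bp between the closest pair. The other lay upstream of the cyclin D1 gene Ccnd1, with widths of 615, 301 and 284 bp at 1399 to 3439 bp from its start.

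Genes of T cells and of the Notch pathway were then searched for members within the gene or 10 kb of it. Of 20 genes for T-cell transcription factors, 7 (35.0%) had a member, against 2.63% of 21281 autosomal protein-coding genes. A CpG-poor distal peak was found at 16 of the 20, against 37.7% of all. The 7 were Bcl11b, a factor of T-cell commitment (443 bp), Runx3 (298 bp), Lef1 (629 bp), Ikzf3, which encodes Aiolos (1303 bp), Myb (349 bp), Id2 (326 bp) and Id3, with a pair of members of 239 and 601 bp. The nearest start was that of Grb7 for the Ikzf3 member, at 3556 bp. For the Id3 member of 239 bp it was that of a U6 gene, at 2876 bp. The members at these genes lay 1727 to 3902 bp from the nearest start of any gene, and with peaks beyond 5 kb only, the count was 0. With the stricter composition thresholds it was 1.

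Of 27 genes of the Notch pathway on autosomes, 3 (11.1%) had a member and 17 (63.0%) a CpG-poor distal peak. The ligand gene Dll4 had a member of 822 bp 9037 bp from its start. The coactivator gene Maml3 had the member of 1609 bp whose centre is printed above, and Nrarp, which encodes a feedback inhibitor of Notch, had one of 941 bp at 4942 bp. Of 24 imprinted genes on autosomes, 1 (4.17%) had a member, a peak of 354 bp in an intron of Kcnq1, and 12 had a CpG-poor distal peak. Of 170 genes of developmental transcription factor families, 13 (7.65%) had a member and 55 (32.4%) a CpG-poor distal peak. Hoxb3 to Hoxb8 made up 6 of the 13 and can share a peak, because the genes lie side by side, and the others included Foxc2, Lhx5, Sox4, Sox6 and Tbx2. The lists were described without a test.

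Of the 470 members whose nearest start was that of a protein-coding gene, 53.6% were next to a gene that also had a promoter peak, against 66.3% of CpG-poor distal peaks. Set apart from RefSeq starts within 1 kb, B boxes, copies and exons, 364 members (60.9%) remained. They had a median width of 606.5 bp, a median CpG ratio of 0.71 and a median distance of 7928 bp from a start, and 182 of them held an SP motif and 17 a CTCF motif in the central 200 bp.

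The number of members differed between autosomes, from 17 on chromosome 19 to 58 on chromosome 7. Relative to all distal peaks of the autosome, members made up 2.86 ± 0.650% (mean ± SD, n = 19 autosomes). The share was lowest on chromosome 1, with 1.93%, and highest on chromosome 7, with 4.54%. Per Mb of chromosome they ranged from 0.113 on chromosome 3 to 0.460 on chromosome 11, which also had the highest density of CpG-rich promoter peaks, with 6.11 per Mb.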

How the data were processed

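Accessible DNA of Beko cells was profiled by ATAC-Seq with an Active Motif kit, in 3 libraries with DMSO and 3 with GSI, grouped by their labels. According to the methods of the study and the submitters' processing notes, the authors trimmed the reads, aligned them to mm9 with HISAT2 2.2.1 with at most 1 alignment for a read, discarded duplicates (Picard), identified peaks with MACS2 without an input, combined replicates, required a peak in 3 of 6 libraries and took out blacklisted regions. Deposited are positions in bp, and the score is 0 in every row, so neither a threshold on it nor a comparison of GSI with DMSO was run here. Read depth per library was not used. Reads from repeated sequence, which the aligner places at 1 of several sites, can place a peak at another copy. A peak found in 3 libraries may come from 1 treatment, which the list does not record.

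Coordinates are counted from 1. The genome was NCBIM37 (mm9) with GENCODE vM1, and peaks were classed by the distance from their edge to the nearest transcript start and by composition. The feature under the centre counted as that of the peak. Copies and the RefSeq promoter sequences (300 bases, GRCm38.p6) were placed on mm9 with minimap2 2.31, the latter at 98% identity or more over at least 285 bases. Differences between classes were taken per autosome and tested with a two-sided sign-flip permutation test of 100000 resamples, adjusted by Benjamini-Hochberg over 25 tests at a threshold of 0.05. Shares carry 95% Wilson intervals, which cover counting error only. Analyses used Python 3.11.15, numpy 2.4.6, scipy 1.17.1, pandas 2.3.3 and matplotlib 3.10.9, and the procedures were tested on simulated data. There the median width of few peaks came out slightly above that of many peaks of the same distribution, by far less than the differences in width given here, so small differences in width would not be reliable. Where no difference was simulated, the permutation test of median widths fell below 0.05 more often than its nominal rate.

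The members, gene lists and motifs were chosen with earlier results of these data known. Peaks named were the 5 widest, the 5 farthest from a start, those next to each threshold, those at the first 3 gene lists, the longest runs and the 5 with most SP matches. Others were named after their values were seen, as the text says. The share of repeat-masked bases was planned but not run, because the genome used here carries no masking.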

Additional observations from a re-analysis of the deposited data

How the results depend on the processing

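The 25 tested differences were recomputed under 12 alternatives where each applied, of which 2 were added after seeing the data (peaks within 1 kb of a RefSeq start left out, and peaks without a B box). Of 239 retests, 194 kept the direction and the side of the threshold, 18 fell below it, 6 rose above it and 21 changed sign. The differences in width, distance from a start, intergenic share, flanking CpG ratio, RefSeq starts and the YY1 motif kept direction and threshold in each alternative that was run for them. Differences in percentage points follow, members minus CpG-rich promoter peaks for motifs and minus CpG-poor distal peaks otherwise, and the cause of each change was not tested. CREB missed the threshold at 2 kb, at 5 kb, with central composition, without copies and without RefSeq starts, and TCF7/LEF1 at 5 kb, with stricter thresholds and from 500 bp. The values of close neighbours, copies, exons, SP, CCGGAAG and CTCF below also missed it.

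With thresholds of 0.75 for the CpG ratio and 55% for GC content, 231 members remained (1.12% of distal peaks), at 1 T-cell gene, 0 Notch and 0 imprinted genes and 2 developmental genes. The differences were 3.35 for close neighbours, 2.99 for copies, -4.81 for SP, -4.83 for CCGGAAG, -1.95 for AGGAAG, 0.391 for BANP, 1.08 for CTCF, -0.438 for NF-Y, 1.04 for RUNX and 2.93 for TCF7/LEF1. Beyond 2 kb from a start, members were 2.55% of distal peaks, at 6 developmental genes, with -2.56 for CREB, 0.000778 for BANP, -0.434 for NF-Y and 0.221 for RUNX. Beyond 5 kb, 355 members (2.16%) lay at 0 T-cell genes, 1 Notch gene and 4 developmental genes, with 3.45 for exons, 0.400 for close neighbours, -1.67 for CREB and 2.34 for TCF7/LEF1.

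With composition measured over the central 200 bp, 937 members (4.53%) lay at 6 Notch and 3 imprinted genes, with -1.39 for CREB, -1.02 for NF-Y, 5.40 for the E-box, 4.35 for RUNX and 2.73 for GATA, the last 3 past the threshold. Among peaks of at least 500 bp, 388 members (4.50%) lay at 3 T-cell and 0 imprinted genes, with 3.18 for copies, 1.63 for CTCF, -1.07 for NF-Y and 0.777 for TCF7/LEF1. With starts of protein-coding transcripts only, members were 3.68% of distal peaks, at 6 Notch and 3 imprinted genes, with -0.813 for NF-Y. Without peaks that have a copy, AGGAAG gave 4.20 and passed, CREB -2.18, NF-Y -2.18 and RUNX 0.0750. Without peaks at RefSeq starts, members were 2.44% of distal peaks, with -1.71 for CREB, 0.307 for BANP and -1.86 for NF-Y. Neighbours within 20 kb gave 2.36.

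Motifs in the whole peak, each past the threshold except TCF7/LEF1 and AP-1, gave -2.70 for NRF1, -9.07 for AGGAAG, -1.88 for BANP, -11.0 for NF-Y, -6.75 for the E-box, -5.53 for RUNX, -7.79 for RBPJ, -3.38 for TCF7/LEF1 and -0.993 for AP-1.

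No paired analysis was possible because no peak has a value per library, so the replicate numbers of DMSO and GSI were not used and leaving out a library was not possible. A stricter threshold of the authors' peaks was not run, since each score is 0. Signal strength was not compared, since the list gives presence alone.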
